A study of Mus musculus with 7 samples.

Results

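Alx4, Nr2f1, Dnm3os, Ndnf, Ntrk3, Prtg, Bcat1 and Gabrp are 8 genes of embryonic patterning, growth factor signalling and metabolism, out of 38924 genes counted in mouse fetal liver. They were chosen by a measured value, a clear rise in livers without Pcbp2, so their differences between the groups are given as a description, with no test. The names of 7 of them stand in the authors' deposited table, and the identifier of Gabrp was named from GENCODE M21. All 8 had enough reads to enter the fit, together with 16218 other genes. The study sequenced polyadenylated RNA of fetal liver taken 12.5 days post coitum, with 3 PCBP2 knockout libraries (KO 3, KO 4 and KO 5) and 4 wild type libraries (WT 1 to WT 4). The labels give no allele, Cre driver, strain, sex, litter or batch, and they do not say whether each library came from a separate embryo. The p-values below therefore measure the spread between libraries, part of which may be technical. The libraries held 31898339 to 44544889 reads assigned to genes. The targeted gene serves as a check of the labels: Pcbp2 had 2.24, 1.39 and 2.22 CPM (reads as a share of the TMM-scaled library) in KO 3, KO 4 and KO 5, against 165, 329, 347 and 338 CPM in WT 1 to WT 4.

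Pcbp2 encodes a KH-domain protein that recognises runs of C in RNA, where it can alter splicing, the life of the message and its translation. The fetal liver is at this stage the main site of blood formation, and its blood cells and hepatoblasts lie among endothelium, stellate cells, mesothelium and other mesenchyme that descends in large part from the septum transversum. Mesenchyme of the embryo is patterned by homeodomain and nuclear receptor proteins, which act on growth factor receptors, guidance molecules and small RNAs. In a library of whole tissue, fewer cells of a type and less RNA per cell cannot be told apart, and none of these values says which cells held the transcripts.

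Among the 8 genes is the host of 2 microRNA genes. Dnm3os is a long noncoding RNA written from the strand opposite Dnm3, and the mouse needs it for normal growth of the skeleton. Mir199a-2 and Mir214 both lie inside the Dnm3os transcript, on the same strand of chromosome 1. Their 4 mature sequences are shown because they are the known products of this RNA; they come from RefSeq on GRCm38.p6, with the seed (bases 2 to 8) in capitals, and no seed is shared between them.
miR-199a-5p: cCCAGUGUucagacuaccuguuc
miR-199a-3p: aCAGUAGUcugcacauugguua
miR-214-5p: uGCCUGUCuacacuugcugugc
miR-214-3p: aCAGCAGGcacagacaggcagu
The annotated hairpins Mir199a-2 and Mir214 had 0 reads in each of the 7 libraries. These libraries were made from polyadenylated RNA and do not measure mature microRNAs, and how reads shared by a hairpin and its host were assigned is not stated. The values below concern the host transcript only.

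The transcription factors come first. Alx4 encodes an aristaless-related homeodomain protein of craniofacial and limb mesenchyme and lies on chromosome 2 from 93642384 to 93681339 on the plus strand (GENCODE M21, mm10). Alx4 had 5.72, 11.3 and 10.0 CPM in KO 3, KO 4 and KO 5, against 2.10, 4.66, 2.55 and 3.61 CPM in WT 1 to WT 4. KO 3 was well below the other knockout libraries and close to WT 2, but the groups did not overlap. The mean was 8.99 ± 2.91 CPM in knockout (SD, n = 3) and 3.23 ± 1.15 CPM in wild type (SD, n = 4), a fitted log2 difference of 1.47 ± 0.30 (SE). Ext2, a heparan sulphate enzyme gene on the opposite strand that overlaps Alx4 in the annotation, differed by -0.22 ± 0.12 (log2, SE; edgeR adjusted p = 0.295).

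Nr2f1 encodes COUP-TFI, an orphan nuclear receptor of neural and neural crest development, and lies on chromosome 13 from 78188973 to 78199757 on the minus strand. Nr2f1 had 33.4, 42.5 and 35.2 CPM in KO 3, KO 4 and KO 5, against 12.6, 22.1, 15.0 and 15.6 CPM in WT 1 to WT 4. KO 4 and WT 2 were the high libraries of their groups, and the lowest knockout library lay 1.51-fold above the highest wild type one. Mean levels of Nr2f1 were 37.1 ± 4.80 CPM in knockout (SD, n = 3) and 16.3 ± 4.07 CPM in wild type (SD, n = 4), and the log2 difference was 1.18 ± 0.18 (SE). The antisense transcript A830082K12Rik, which overlaps Nr2f1, had 6.17 ± 0.631 CPM in knockout and 4.01 ± 0.809 CPM in wild type (log2 0.62 ± 0.19; edgeR adjusted p = 0.0917). The libraries are stranded per the labels, but how strand was handled in the counting is not given, so reads of Nr2f1 and of this partner cannot be told apart with certainty. The same holds for Dnm3os and Dnm3, and for Alx4 and Ext2.

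Dnm3os spans 162217623 to 162225550 on the plus strand of chromosome 1 and had the highest level of the 8 genes, also per kilobase of exon. Dnm3os had 100.01, 77.0 and 107.9 CPM in KO 3, KO 4 and KO 5, against 48.3, 36.1, 31.9 and 48.8 CPM in WT 1 to WT 4. Here KO 4 was the low knockout library and WT 2 was below WT 1 and WT 4, unlike Alx4 and Nr2f1, and the groups did not overlap. Dnm3os averaged 95.0 ± 16.0 CPM in knockout (SD, n = 3) and 41.3 ± 8.57 CPM in wild type (SD, n = 4), a log2 difference of 1.20 ± 0.17 (SE). Dnm3, the dynamin gene on the other strand, had 6.40 ± 1.27 CPM in knockout and 4.10 ± 0.310 CPM in wild type (log2 0.64 ± 0.18; edgeR adjusted p = 0.0665).

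Ntrk3 encodes TrkC, the receptor tyrosine kinase for neurotrophin-3, and lies on chromosome 7 from 78175959 to 78738012 on the minus strand. Ntrk3 had 15.2, 9.95 and 9.04 CPM in KO 3, KO 4 and KO 5, against 4.03, 6.49, 3.97 and 4.21 CPM in WT 1 to WT 4. It was the only one of the 8 genes with its highest knockout value in KO 3, and WT 2 stood apart from the other wild type libraries. The mean of Ntrk3 was 11.4 ± 3.33 CPM in knockout (SD, n = 3) and 4.67 ± 1.22 CPM in wild type (SD, n = 4), with a log2 difference of 1.28 ± 0.23 (SE). Gm9885, an antisense gene within Ntrk3, had fewer than 1 CPM in both groups and a log2 difference of -0.06 ± 0.38 (edgeR adjusted p = 0.948).

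Prtg encodes protogenin, a transmembrane immunoglobulin protein of the DCC family in the early embryo, and lies on chromosome 9 from 72806874 to 72917291 on the plus strand. Prtg had 6.74, 6.71 and 7.84 CPM in KO 3, KO 4 and KO 5, against 3.01, 3.66, 3.75 and 3.61 CPM in WT 1 to WT 4. The libraries of each group were close together, with coefficients of variation of 9.09% in knockout and 9.55% in wild type, the lowest among the 8 genes in both groups. Prtg averaged 7.10 ± 0.645 CPM in knockout (SD, n = 3) and 3.51 ± 0.335 CPM in wild type (SD, n = 4), a log2 difference of 1.01 ± 0.16 (SE), the smallest of the 8.

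Ndnf encodes a secreted glycoprotein, neuron-derived neurotrophic factor, and lies on chromosome 6 from 65671590 to 65712326 on the plus strand. Ndnf had 7.17, 16.3 and 10.9 CPM in KO 3, KO 4 and KO 5, against 1.56, 4.88, 2.08 and 2.28 CPM in WT 1 to WT 4. The spread was wide in both groups, a 2.28-fold range in knockout and a 3.13-fold range in wild type, with KO 4 and WT 2 high and no overlap. Mean levels were 11.4 ± 4.60 CPM in knockout (SD, n = 3) and 2.70 ± 1.49 CPM in wild type (SD, n = 4), and the log2 difference of Ndnf was 2.08 ± 0.38 (SE).

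Bcat1 encodes the cytosolic branched-chain amino acid transaminase and lies on chromosome 6 from 144993835 to 145076184 on the minus strand. Bcat1 had 9.98, 12.8 and 14.9 CPM in KO 3, KO 4 and KO 5, against 3.93, 6.57, 4.41 and 6.55 CPM in WT 1 to WT 4. KO 5 was highest, WT 2 and WT 4 were nearly equal at the top of the wild type group, and the groups did not overlap. The mean of Bcat1 was 12.6 ± 2.45 CPM in knockout (SD, n = 3) and 5.36 ± 1.396 CPM in wild type (SD, n = 4), with a log2 difference of 1.22 ± 0.21 (SE).

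Gabrp encodes the pi subunit of the GABA-A receptor, which is better known from epithelia than from mesenchyme, and lies on chromosome 11 from 33550781 to 33578959 on the minus strand. Gabrp had 89, 268 and 548 reads in KO 3, KO 4 and KO 5, against 7, 12, 4 and 21 reads in WT 1 to WT 4. In CPM these were 2.69, 5.91 and 15.6 in knockout and 0.237, 0.293, 0.109 and 0.483 in wild type, so the knockout libraries ranged over 5.81-fold while the groups stayed apart. The mean was 8.08 ± 6.73 CPM in knockout (SD, n = 3) and 0.281 ± 0.155 CPM in wild type (SD, n = 4), a 27.8-fold difference (log2 4.80 ± 0.61, SE). Only 2 tested genes had a larger fitted rise than Gabrp, the heart markers Nppa (log2 6.94) and Myh6 (5.39), which were also uneven between the knockout libraries. The size of the Gabrp difference rested in part on single libraries: it was 3.90 without KO 5 and 5.21 without WT 4 (log2).

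**Figure D1:**
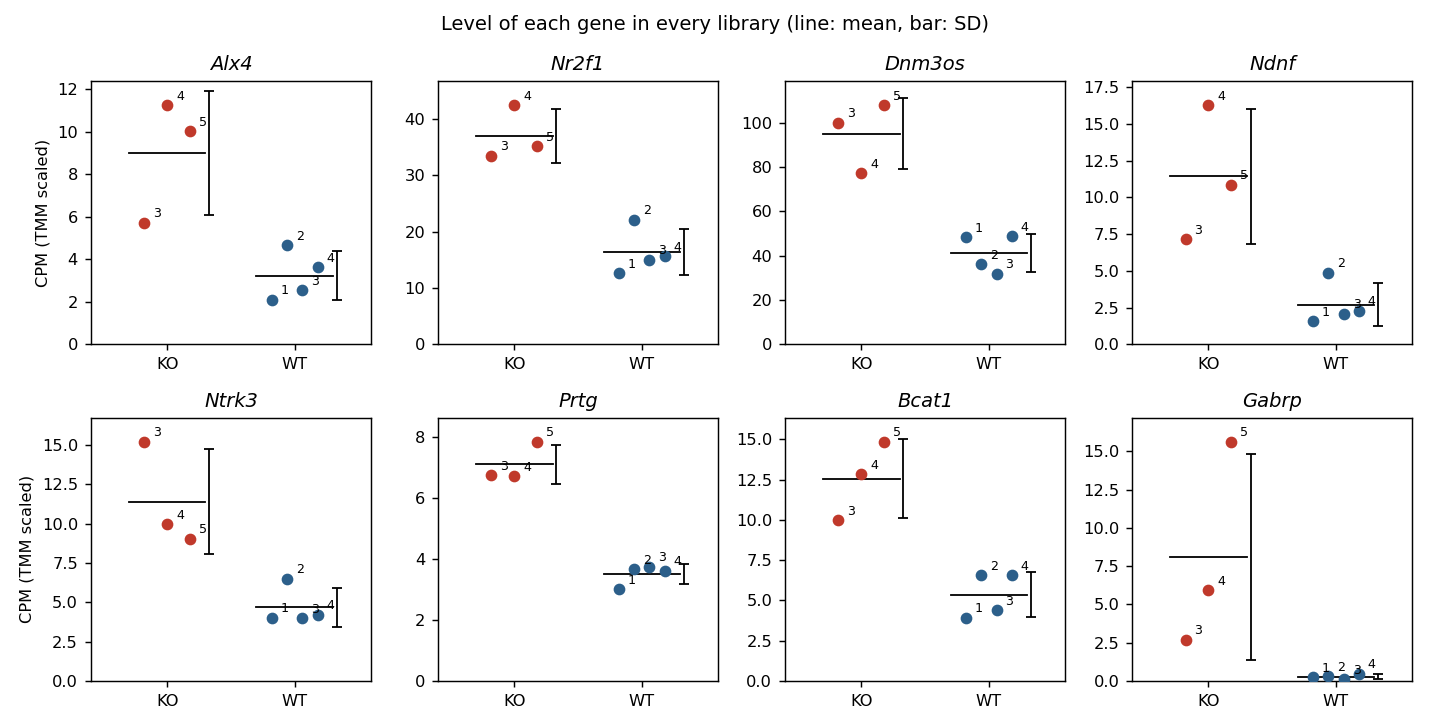
Level of each of the 8 genes (CPM, TMM scaled, linear axes from 0) in the 3 knockout libraries (red) and the 4 wild type libraries (blue); digits are the replicate numbers, lines the group means and bars the SD. No panel has a wild type point as high as a knockout point, Prtg is the tightest and Gabrp the widest in knockout, with values from 2.69 to 15.6 CPM.

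The median log2 difference of the 8 genes was 1.25, and that of all tested genes was 0.01. All 8 were among the genes called higher in knockout, which made up 1.59% of tested genes (258 of 16226, edgeR adjusted p under 0.05), and all had groups without overlap, which held for 9.83% of tested genes in this direction. Since this contrast chose the genes, nothing is read from these counts. Genes called lower made up 3.43% of those tested (556), so that 5.02% changed in either direction, and 0.536% rose at least 2-fold. With total-count scaling 651 genes were called higher and 393 lower, and the median of all genes was 0.14. The number of the 8 genes past the threshold fell to 4 without KO 5 (Alx4, Ndnf, Prtg and Bcat1 missed it), to 6 without KO 4 (Alx4 and Ndnf missed it), and to 7 without WT 3 or without WT 4 (Alx4 missed it). Over all tested genes, those called higher numbered 24 without KO 5, 107 without KO 4, 79 without WT 3 and 93 without WT 4. The same choice of genes lies behind these counts, so they are no support for a rise. In the authors' deposited table the log2 fold changes of the 7 genes listed there ran from 0.99 for Prtg to 1.91 for Ndnf.

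**Figure D2:**
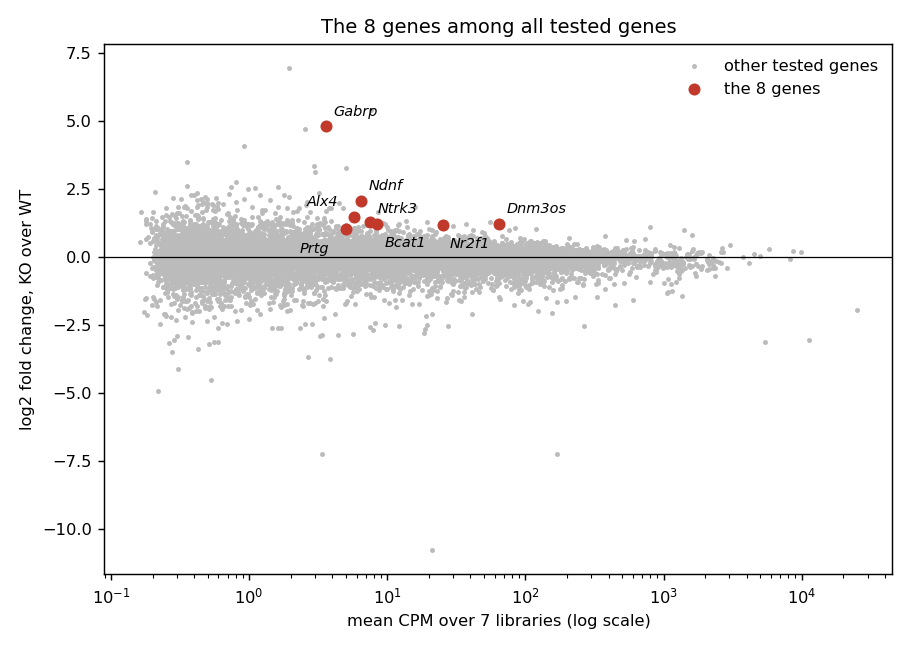
Fitted log2 fold change (knockout over wild type) against the mean CPM over 7 libraries (log axis) for all tested genes (grey) and the 8 genes (red). The 8 genes lie between 1.01 and 4.80, with 7 of them below 2.1 and Gabrp apart from the rest.

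Levels between genes were compared per kilobase of merged exons in GENCODE M21. On this scale Dnm3os had 11.98 CPM per kb in knockout and 5.21 in wild type, and Nr2f1 had 7.28 in knockout and 3.21 in wild type. The other 6 genes were below 3 CPM per kb in both group means. Gabrp, at 2.39 CPM per kb in knockout, came after these in knockout and was last in wild type, at 0.0831. In knockout the libraries of Dnm3os, then of Nr2f1, lay above those of all other genes. Gabrp (0.797 to 4.63 CPM per kb), Bcat1 (1.07 to 1.59), Alx4 (0.810 to 1.59), Ndnf (0.709 to 1.61) and Prtg (0.732 to 0.856) followed, each overlapping its neighbour in that order. In wild type the order was Dnm3os, Nr2f1, Bcat1, Alx4, Prtg, Ndnf, Ntrk3 and Gabrp, and only Nr2f1 and Bcat1 were neighbours without overlap. Ntrk3 was last in knockout, at 0.378 CPM per kb and below every library of Prtg, but its merged exons of 30.2 kb include long alternative ends that lower the value.

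The 8 genes did not vary as a block within the groups. Relative to the group mean of log2 CPM, KO 3 was lowest for 5 genes and highest for Ntrk3, KO 4 was highest for Alx4, Nr2f1 and Ndnf and lowest for Dnm3os and Prtg, and KO 5 was highest for Dnm3os, Prtg, Bcat1 and Gabrp. In wild type, WT 2 was highest for Alx4, Nr2f1, Ndnf, Ntrk3 and Bcat1, and WT 1 was lowest for Alx4, Nr2f1, Ndnf, Prtg and Bcat1. Alx4, Nr2f1 and Ndnf thus had the same high library in both groups, KO 4 and WT 2, and also the same low one, KO 3 and WT 1. Dnm3os departed from them, with KO 4 and WT 3 as its low libraries. Averaged over the 8 genes, the deviation was -0.30 in KO 3, 0.08 in KO 4 and 0.22 in KO 5, and -0.27 in WT 1, 0.37 in WT 2, -0.27 in WT 3 and 0.18 in WT 4. With 3 and 4 libraries a group, these orders are a description and no correlation between the genes was tested. The biological coefficient of variation estimated by edgeR was 49.1% for Gabrp and 34.7% for Ndnf, at the 98.5th and 93.1st percentile of tested genes, and 16.0% for Prtg, at the 53.5th percentile.

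**Figure D3:**
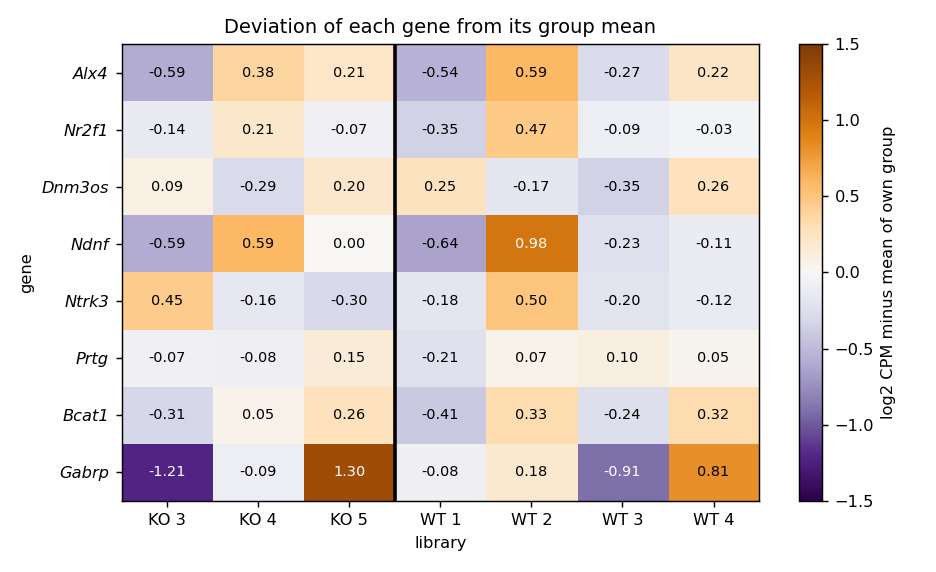
Log2 CPM of each gene in each library minus the mean of its own group, knockout libraries left of the line and wild type libraries right of it. KO 3 is mostly low except for Ntrk3 at 0.45 and Dnm3os at 0.09, WT 2 is mostly high except for Dnm3os at -0.17, and Gabrp has the strongest deviations, from -1.21 to 1.30.

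The genes outside the set whose deviations most resembled the mean deviation of the 8 were Laptm4b (r = 0.991), Fam120b (0.989), Nkain1 (0.986), Raver2 (0.985) and Rnf122 (0.982), by Pearson's r over 7 libraries. Of the 11249 genes compared, with a mean of at least 5 CPM, 2.19% had an r over 0.9, so these values single out no gene. The points share library depth and tissue makeup. Laptm4b, the nearest, had 37.8, 42.6 and 44.9 CPM in KO 3, KO 4 and KO 5, against 33.5, 43.5, 34.5 and 39.4 CPM in WT 1 to WT 4. None of the 5 was called between knockout and wild type. Their log2 differences ran from 0.03 for Raver2 to 0.32 for Nkain1, and their smallest edgeR adjusted p was 0.202.

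The relatives and partners of the 8 genes were taken from 8 lists of 134 genes, 123 of them tested. Of these 5.69% (7 genes) rose in knockout and 0 fell (edgeR adjusted p under 0.05), beside 1.59% of all tested genes that rose. The median log2 difference of the 123 genes was 0.09. The lists were chosen with earlier results of these data known, so no excess is read from this share. The list of aristaless-related and other mesenchymal transcription factors had the highest count. In it 3 of 26 genes rose, 0 fell and 23 did not pass; 19 had a positive log2 difference, and the median was 0.56. The count depended on single libraries: it was 8 without KO 3, 1 without KO 5 and 10 without WT 2, and it was 7 with DESeq2 and 5 with no filter on low counts.

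Twist1, a bHLH factor of cranial and limb mesenchyme, had 42.4, 41.4 and 47.1 CPM in knockout, against 29.9, 26.8, 27.3 and 23.9 CPM in wild type. Twist1 rose by 0.69 ± 0.11 (log2; edgeR adjusted p = 0.00759, and 0.0608 without KO 5). Tbx3, a T-box factor that the fetal liver needs for hepatoblast growth, had 24.7, 34.1 and 32.2 CPM in knockout and 16.2, 24.4, 19.1 and 16.6 CPM in wild type. The rise in Tbx3 (log2 0.67 ± 0.17; edgeR adjusted p = 0.0488) was lost in 6 of 15 alternatives, among them each left-out library except KO 3 and WT 2.

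Other genes of that list did not pass and are given by value. Alx1, an aristaless-like homeodomain gene, differed by 0.94 ± 0.28 (log2; edgeR adjusted p = 0.0839), and Tbx5, a heart and forelimb factor, by 0.96 ± 0.26 (0.0601). Prrx1, a paired-type factor of limb mesenchyme, was level, with 20.9 CPM in knockout and 20.99 CPM in wild type (log2 -0.01 ± 0.24; adjusted p = 0.991). Tcf21 and Hand2, factors of visceral mesenchyme, were also near 0, at -0.09 ± 0.25 (adjusted p = 0.866) and -0.02 ± 0.12 (0.932).

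Around Nr2f1, the list of COUP-TF and retinoid genes had 0 of 17 genes past the threshold in either direction with edgeR, but 7 with an unadjusted p under 0.05. DESeq2 called 4 higher and 1 lower, and the replicate block called 6 higher. Without KO 3 the count of genes called higher was 1, and without WT 2 it was 3. Its median was 0.28. Nr2f2, which encodes the related receptor COUP-TFII, had 164 CPM in knockout and 130 CPM in wild type (log2 0.34 ± 0.10; edgeR adjusted p = 0.0749). Of the 3 dynamin genes 0 passed with edgeR, 2 had an unadjusted p under 0.05 and 1 was called higher with DESeq2.

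In the list of neurotrophins and their receptors 1 of 11 tested genes rose (2 with DESeq2, limma-voom or total-count scaling), 0 fell, and the median was 0.11. Ntrk2, which encodes TrkB, the receptor of BDNF and a close relative of Ntrk3, had 8.47, 7.28 and 8.36 CPM in KO 3, KO 4 and KO 5, against 2.37, 3.95, 1.34 and 1.52 CPM in WT 1 to WT 4. The knockout libraries lay close together, and every one was above each wild type library. Ntrk2 rose by 1.80 ± 0.32 (log2; edgeR adjusted p = 0.0144, and 0.0694 without KO 5). Ntf3, the gene of the TrkC ligand neurotrophin-3, had 6.17 CPM in knockout and 6.37 CPM in wild type (log2 -0.05 ± 0.18; adjusted p = 0.905).

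Among the DCC relatives, netrins, repulsive guidance molecules and Lin28 genes set beside Prtg, 1 of 16 rose (2 with DESeq2 and without WT 2) and 0 fell, with a median of 0.03. The gene that rose was Lin28a, an RNA-binding protein of early embryonic cells that blocks let-7 maturation, with 15.1 ± 0.925 CPM in knockout and 9.98 ± 1.048 CPM in wild type (log2 0.60 ± 0.12; edgeR adjusted p = 0.0244). This call was lost without KO 3, KO 4, KO 5 or WT 4, with adjusted p up to 0.104. Igdcc3, a DCC family gene like Prtg, differed by 0.62 ± 0.19 (adjusted p = 0.0923), and Neo1, the neogenin gene, by 0.09 ± 0.12 (0.702).

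The enzymes and transporters of branched-chain amino acids set beside Bcat1 had 0 of 17 genes past the threshold with edgeR, 4 with an unadjusted p under 0.05 and a median of 0.01. With DESeq2 0 were called higher and 1 lower, and 1 was called lower without KO 3 or without WT 2. Bcat2, the mitochondrial counterpart of Bcat1, had 44.2 CPM in knockout and 42.3 CPM in wild type (log2 0.06 ± 0.16; adjusted p = 0.855). Slc43a1, a neutral amino acid transporter, was at -0.82 ± 0.22 (adjusted p = 0.0628).

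Of 22 GABA receptor, synthesis and transport genes set beside Gabrp, 14 were tested, 1 rose, 0 fell and the median was -0.07 (0.05 with total-count scaling). The gene that rose, Gabbr1, encodes a subunit of the metabotropic GABA-B receptor, which does not assemble with the pi subunit. Gabbr1 had 21.5, 24.3 and 25.2 CPM in KO 3, KO 4 and KO 5, against 13.8, 15.7, 12.8 and 15.9 CPM in WT 1 to WT 4 (log2 0.70 ± 0.12; edgeR adjusted p = 0.012, and 0.0787 without KO 5). None of the other tested GABA-A subunit genes passed, and Gabra6 had 0 reads in every library. In the FGF list 1 of 19 tested genes rose (2 with DESeq2, with total-count scaling and without KO 3), 0 fell, and the median was 0.15. That gene was Dusp6, a phosphatase induced by FGF and ERK signalling (log2 0.46 ± 0.11; edgeR adjusted p = 0.0486), and its call was lost in 9 of 15 alternatives, among them each left-out library except KO 3, with adjusted p up to 0.193.

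**Figure D4:**
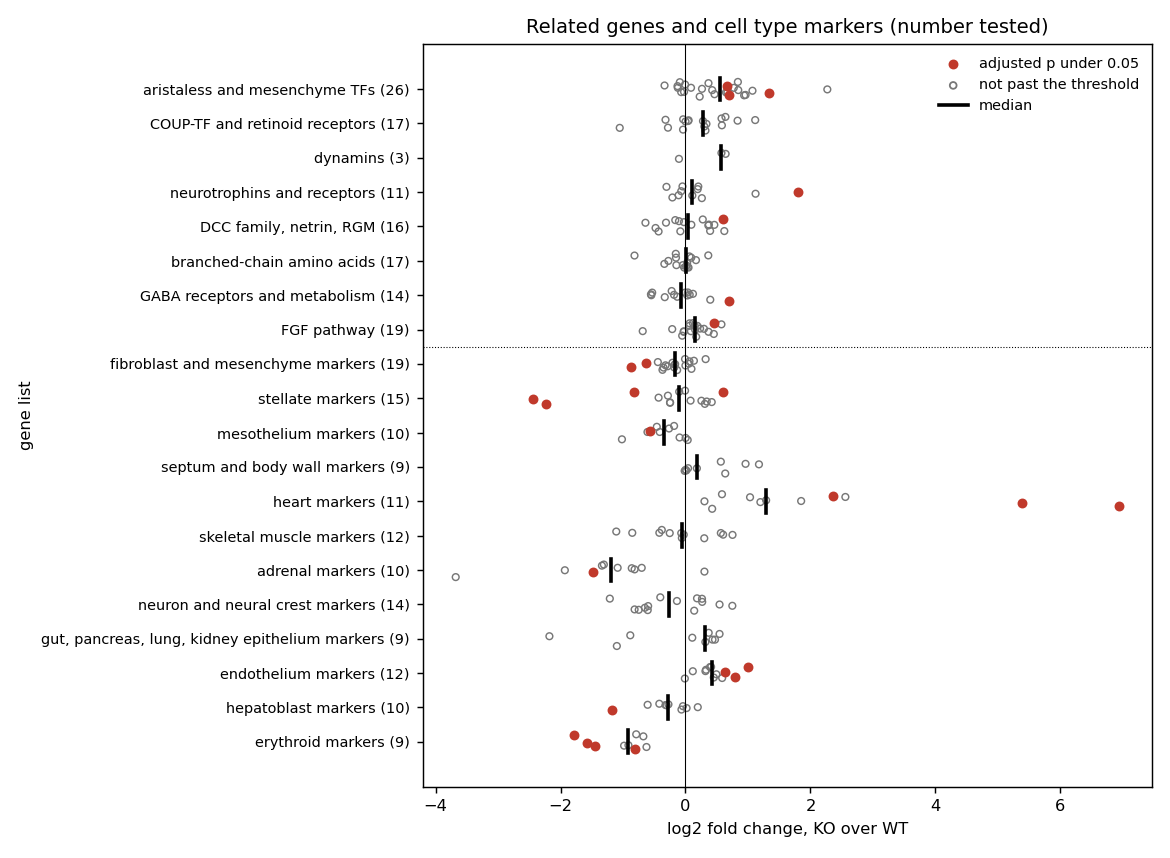
Log2 fold change (knockout over wild type) of each tested gene in the lists of relatives and partners (above the dotted line) and in the cell type marker lists (below it); filled red points passed an edgeR adjusted p of 0.05, open points did not, bars are list medians and brackets give the number tested. The aristaless and mesenchyme transcription factors have a median of 0.56, while the fibroblast and mesenchyme markers have a median of -0.17 and the erythroid markers one of -0.91.

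General markers of mesenchyme did not share the direction of the 8 genes. Of 19 tested fibroblast and mesenchyme markers 0 rose and 2 fell by either edgeR or DESeq2, and the median was -0.17; at an unadjusted p under 0.05 there were 4. Lum, a collagen-binding proteoglycan gene, fell by 0.64 (log2; edgeR adjusted p = 0.0135), and Col6a3, a collagen VI chain gene, fell by 0.87 (0.0243). Without KO 5 neither passed, and without KO 4 or without WT 3 only 1 of them did. The summed level of the list was 5416 to 6183 CPM in knockout and 5402 to 7862 CPM in wild type, so the groups overlapped. Developmental mesenchyme genes is thus a name given with the choice of the 8, and it does not describe each of them. Gabrp is better known from epithelia, and Bcat1 encodes a metabolic enzyme. Nor does the name rest on a rise of mesenchyme markers here. In units of CPM per 1000 CPM of these markers, a scale chosen after the values were seen, the 8 genes had log2 differences from 1.18 to 5.04, with a median of 1.44. A rise chose these genes and other genes were not put on this scale, so the values are a description only.

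Among 15 stellate cell markers 3 fell and 1 rose, the median was -0.10 (0.02 with total-count scaling), and the sums overlapped, with 752 to 872 CPM in knockout and 741 to 902 CPM in wild type. Gfap fell by 2.44 (log2; edgeR adjusted p = 0.00563), with 3.78, 1.32 and 1.91 CPM in knockout against 15.5, 9.64, 14.5 and 10.5 CPM in wild type. Rspo3, a Wnt agonist gene, fell by 0.83 (0.00563), and Lrat, the retinyl ester enzyme of stellate cells, fell by 2.23 (0.0161, and 0.079 without KO 5). Acta2, the smooth muscle actin gene, rose by 0.59 ± 0.15 (0.0483), a call lost in 8 of 15 alternatives, among them each left-out library except WT 2. Of 10 mesothelial markers 0 rose and 1 fell, Gpm6a, 6 had an unadjusted p under 0.05, DESeq2 called 3 lower, and the median was -0.34, with sums of 613 to 763 CPM in knockout and 686 to 861 CPM in wild type, and the call of Gpm6a was lost with total-count scaling and without KO 4, KO 5, WT 1 or WT 4. Of 9 tested septum and body wall markers 0 passed with edgeR, 2 had an unadjusted p under 0.05 and 1 was called higher with DESeq2, without KO 3 and without WT 2, with sums of 255 to 284 CPM in knockout and 219 to 292 CPM in wild type.

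Markers of tissues next to the liver were present in uneven amounts. Of 11 tested heart markers 3 rose (Myh6, Nppa and Tnni3), 0 fell and the median was 1.29; their sum was 419, 91.5 and 187 CPM in KO 3, KO 4 and KO 5, against 80.9, 148, 87.7 and 117 CPM in WT 1 to WT 4. With limma-voom or the filter of at least 5 CPM in 3 libraries 0 of them rose, and the count was 5 without KO 4 or with no filter. The call of Tnni3 was lost without KO 3, KO 5, WT 1, WT 3 or WT 4. KO 3, with the highest heart sum, was the lowest knockout library for 5 of the 8 genes and the highest for Ntrk3. Of 10 tested adrenal markers 0 rose and 1 fell, Hsd3b1 (log2 -1.49 ± 0.22; edgeR adjusted p = 0.00602), and their sum was 9.16 to 12.7 CPM in knockout and 13.2 to 79.4 CPM in wild type, highest in WT 2. WT 2 was the highest wild type library for 5 of the 8 genes. It also had the highest sum of 14 neuron and neural crest markers. These sums ran from 50.1 to 79.7 CPM in knockout and from 28.7 to 116 CPM in wild type. Of these markers 0 passed with edgeR or DESeq2 and 0 had an unadjusted p under 0.05. However, 1 was called higher without WT 2 and 4 with the replicate block.

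Skeletal muscle markers (12 tested, 0 past the threshold with edgeR, 2 with an unadjusted p under 0.05 and 1 lower with DESeq2) summed to 74.6 to 120 CPM in knockout and 75.9 to 158 CPM in wild type. Of 14 epithelial markers of gut, pancreas, lung and kidney 9 were tested. With edgeR or DESeq2 0 passed, 1 had an unadjusted p under 0.05, and the replicate block called 3 higher and 1 lower. The list summed to 119 to 179 CPM in knockout and 112 to 132 CPM in wild type. It holds the broad epithelial genes Krt8, Krt18, Epcam and Cdh1, so its sum does not measure tissue of those organs. Of 12 endothelial markers 3 rose (Emcn, Pecam1 and Cdh5), 0 fell and the median was 0.43, with sums of 358 to 431 CPM in knockout and 255 to 337 CPM in wild type. With DESeq2 5 rose, as with total-count scaling, and 7 had an unadjusted p under 0.05. The count was 1 without KO 5, where Emcn alone passed, and Cdh5 was also lost without KO 3, KO 4, WT 1 or WT 4. Of 10 hepatoblast markers 0 rose and 1 fell, Ahsg, a call lost without KO 4 or KO 5; 2 fell with DESeq2 and without WT 2, and the sums overlapped, with 7413 to 9448 CPM in knockout and 5945 to 12468 CPM in wild type. The part of any of these tissues in the levels of the 8 genes was not tested.

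Erythroid markers moved against the 8 genes. Of 9 tested, 0 rose and 4 fell, among them Alas2, Slc4a1 and Klf1, all 9 had a negative log2 difference and the median was -0.91. The count was 2 without KO 4, 1 without KO 5, 9 without WT 2 and 2 without WT 3, and it was 7 with DESeq2 and 8 with no filter on low counts. Their sum was 2813, 1684 and 2138 CPM in KO 3, KO 4 and KO 5, against 6945, 3480, 6177 and 4553 CPM in WT 1 to WT 4. Within both groups the library with the highest erythroid sum, KO 3 in knockout and WT 1 in wild type, was the low library for Alx4, Nr2f1, Ndnf and Bcat1, and WT 2, with the lowest wild type sum, was the high library for 5 of the 8 genes. In knockout the lowest sum was in KO 4, the high library for Alx4, Nr2f1 and Ndnf but the low one for Dnm3os and Prtg. The mean deviation of the 8 genes was 0.08 in KO 4 and higher, 0.22, in KO 5. Whether the makeup of the tissue has a part in the levels of the 8 genes was not tested. No gene of the marker lists was at 0 in every library.

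**Figure D5:**
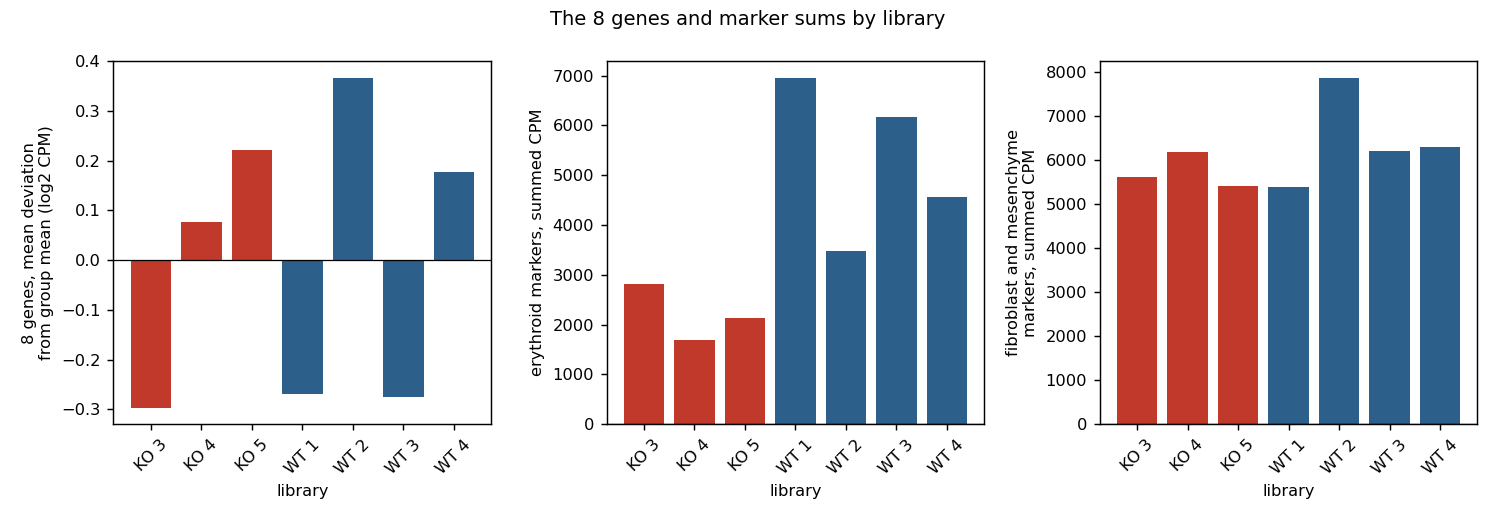
Mean deviation of the 8 genes from their group means (left, log2 CPM), summed CPM of 9 erythroid markers (middle) and summed CPM of 20 fibroblast and mesenchyme markers (right) in each knockout (red) and wild type (blue) library. The libraries with the highest erythroid sum in each group, KO 3 at 2813 and WT 1 at 6945 CPM, have mean deviations of -0.30 and -0.27, and the fibroblast sums of the groups overlap. KO 4, with the lowest knockout erythroid sum at 1684 CPM, has a mean deviation of 0.08, below KO 5 at 0.22.

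Genes beside the 8 in the genome were looked at for a change of whole regions. Genes that overlap one of the 8, such as Dnm3 and Ext2, were left out here. Of the 16 nearest other tested genes, 1 on each side of each gene, 0 were called higher and 1 lower with edgeR, and their median log2 difference was 0.07, from -1.14 to 0.28. Some of them are far away, up to 2684 kb for Arrdc3 from Nr2f1, and so say little about the region. The gene called lower was Cd82, a tetraspanin gene 179 kb from Alx4, with 21.7 ± 1.97 CPM in knockout and 47.8 ± 4.12 CPM in wild type (log2 -1.14 ± 0.11; edgeR adjusted p = 0.00133). Pygo1, 8.35 kb from Prtg, differed by 0.28 ± 0.16 (adjusted p = 0.334).

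Transcript length and base makeup were described next. In 7 of the 8 genes the longest transcript of the GENCODE M21 annotation exceeded the median of 3250 bases over 16075 tested genes. They ran up to 19703 bases for Ntrk3, while Gabrp, at 3280 bases, only just exceeded the median. Nr2f1 was just below it, at 3207 bases. Because Pcbp2 binds C-rich RNA, the share of C was also taken: 6 of the 8 lay below the median of 24.4%, with Dnm3os at 18.1% and Ndnf at 20.8%, while Alx4 (28.0%) and Nr2f1 (30.7%) lay above it. The letters CCCTCCC, searched on the transcript strand only, occurred in 5 of the 8 and in 40.9% of all 16075. That share was not matched for length, and a long transcript has more places for a match, so no excess is read from it. A match is not a binding site, and the libraries hold no measure of Pcbp2 binding.

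Promoter windows in RefSeq on GRCm38.p6, from upstream of the transcript start to just past it, were at hand for 5 of the 8 genes, 7 windows in all. The E-box CANNTG, the core that bHLH factors such as Twist1 bind, was in 6 of the 7 windows and in 72.3% of the 32851 windows of all genes. The nuclear receptor core AGGTCA, searched on both strands, was in 1 window and in 16.3% of all windows, the homeodomain core TAATTA was in 0 and 5.29%, and the Sp1 core GGGCGG was in 2 and 35.7%. The upstream parts of the Dnm3os and Gabrp windows are shown, 5′ to 3′ on the gene's strand, as those of the gene with the highest level and of the gene with the largest difference; E-boxes are in capitals. In the mouse, Twist1 has been reported to act on Dnm3os through an E-box.
Dnm3os, chr1:162217373-162217622, plus strand: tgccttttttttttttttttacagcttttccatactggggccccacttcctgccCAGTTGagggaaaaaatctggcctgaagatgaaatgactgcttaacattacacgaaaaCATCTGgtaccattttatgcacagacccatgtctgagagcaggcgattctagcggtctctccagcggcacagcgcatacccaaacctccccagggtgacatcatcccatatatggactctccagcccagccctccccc
Gabrp, chr11:33578958-33579207, minus strand: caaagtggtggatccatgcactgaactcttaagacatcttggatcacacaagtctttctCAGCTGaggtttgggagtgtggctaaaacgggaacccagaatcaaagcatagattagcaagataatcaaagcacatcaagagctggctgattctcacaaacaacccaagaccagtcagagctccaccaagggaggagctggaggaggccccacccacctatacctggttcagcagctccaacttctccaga
The upstream sequence of Dnm3os held 2 E-boxes and that of Gabrp held 1. With a share of 72.3% among all windows, these matches set neither gene apart, and binding was not measured.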

How the data were processed

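Raw gene counts were deposited for each of 7 libraries; 5 HTSeq summary lines were left out. Per the submitters' processing notes, cutadapt 1.4.2, TopHat2, HTSeq, DESeq2 and DESeq were used on build mm10; their settings and the annotation release are not given there. Per the labels' protocols, the RNA came from a Trizol extraction and the libraries from the TruSeq stranded mRNA kit. The authors' deposited table gives for 15548 genes a baseline signal, a log2 fold change with its standard error, a test score and a p-value; of it the log2 fold changes of 7 genes were used. Reads in no annotated gene made up 4.89% to 7.61%.

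The tests used edgeR 4.0.16 in R 4.3.3. There, filterByExpr kept 16226 genes and removed 22698, and libraries were scaled by TMM. The quasi-likelihood test of knockout over wild type was run with Benjamini-Hochberg adjustment over all genes. The SE of a log2 difference was calculated back from this test, as its absolute value over the square root of the F statistic. Alternatives were RLE and total-count scaling, adult globins left out, no filter, at least 5 CPM in 3 libraries, limma-voom (limma 3.58.1), DESeq2 1.42.0, a replicate block, each library left out, and scaling to fibroblast markers (chosen after seeing the data). The 8 genes, the 8 lists of relatives and the 12 marker lists were chosen with earlier results of these data known. Named are Pcbp2, up to 4 called genes a list by smallest p, and the 5 genes most like the 8 in deviation; further relatives, neighbours and overlapping genes were named for their relation to the 8, after their values were seen. Some genes that this rule names are not reported here.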

Additional observations from a re-analysis of the deposited data

Results flagged for a closer look

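In 5 of 52 wild type groups of 4 values a single library lay far from the other 3, by the gap to its nearest neighbour over the whole range. Chance does this in about 1 in 20 groups. Ntrk3 had 6.49 CPM in WT 2, and the next wild type library had 4.21 CPM. Pcbp2 had 165 CPM in WT 1, and the next had 329 CPM. The summed adrenal markers stood at 79.4 CPM in WT 2, and the next sum was 19.5 CPM. Myh6, a heart myosin gene, had 0.782 CPM in WT 4, and the next had 0.305 CPM. Acta2 had 118.9 CPM in WT 2, and the next had 82.8 CPM. So 3 of the 5 concern WT 2, the wild type library that was also highest for 5 of the 8 genes. Without WT 2 the median log2 difference of the 8 genes was 1.41, against 1.25 with all libraries. The causes were not tested.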

How the results depend on the processing

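A rise in these same libraries chose the 8 genes, so the sign of their differences was largely set beforehand and is no separate support. The log2 difference of each of the 8 genes was positive in every alternative that gave one, 16 settings for 7 genes and 15 for Gabrp, which the filter of at least 5 CPM in 3 libraries removed. Their median was 1.44 on the scale of fibroblast markers and ran from 1.17 to 1.41 under the other alternatives. It was 1.17 without WT replicate 3 and 1.41 without WT replicate 2 among the left-out libraries. Prtg was 0.87 with the replicate block. In the lists, the block also called 4 hepatoblast markers and 2 branched-chain amino acid genes lower, and 2 dynamin genes higher. The number of genes rising in knockout was 258, and it was 651 with total-count scaling, 617 with DESeq2 and 852 with the replicate block. Leaving out 1 library gave 24 (without KO 5) to 418 (without WT 2) rising genes. Without KO 4, WT 1, WT 3 and WT 4 they numbered 107, 148, 79 and 93. The number of falling genes was 556, with 1057 by DESeq2, 1204 with the replicate block and 116 (without KO 5) to 753 (without WT 2) with 1 library left out. Without KO 4, WT 1, WT 3 and WT 4 they numbered 242, 363, 286 and 324. The causes were not tested.

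Knockout and wild type share only 2 replicate numbers and no label states what a number means, so the replicate block is no paired design. Deviations of equal numbers correlated over 16226 genes at r = 0.32 for number 3 and 0.26 for number 4. For unequal numbers r was -0.27 for KO 3 with WT 4 and -0.11 for KO 4 with WT 3. Other unequal pairs were not computed. Deviations from a group mean sum to 0 within the group, which ties these values to each other, so nothing is read from their contrast. Whether equal numbers share a batch or litter was not tested. A floor of 3 reads, 0.0673 to 0.094 CPM by library, covers counting error only; Gabrp in WT 3, with 4 reads, lies near it.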
